A study of Mus musculus with 14 samples.

Results

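The genes described here are 6 transcripts through which the mouse oocyte and the granulosa cells around it communicate: the secreted factors *Gdf9*, *Bmp15*, *Bmp6* and *Fgf8*, the receptor tyrosine kinase *Kit*, and *Gja4*, which encodes the gap junction protein connexin 37. They were chosen by name from 20337 genes that could be given a symbol, and the RefSeq transcript with the highest mean count stood for each gene. RNA-seq was performed on 14 libraries, each made from 20 full-grown, germinal vesicle-intact oocytes of females that were 4 to 6 weeks old and had received 5 IU of equine chorionic gonadotropin 48 h earlier. *Ago2* and *Dicer*, genes of the small RNA pathways, were altered in separate series of 8 and 6 libraries. The control of the first series, *Ago2* fl/fl (n = 3), carried floxed alleles without Cre recombinase. *Ago2* ADH oocytes (n = 3) carried 1 floxed allele, deleted in the oocyte by Cre driven by the *Zp3* promoter, and 1 knock-in allele whose protein binds small RNAs but cannot cut their targets. *Ago2* null oocytes (n = 2) came from floxed females of the same crosses that expressed *Zp3*-Cre. The second series compared *Dicer* WT oocytes (n = 3) with *Dicer* KO oocytes (n = 3) that lacked *Dicer*, and the promoter driving that deletion was not given in the sources used here. Because *Zp3*-Cre acts in growing oocytes, transcripts and protein made before excision could persist, and each tube pooled oocytes of several females of 1 genotype, so that p-values measure the spread between such pools.

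GDF9 and BMP15 are members of the TGF-beta superfamily that oocytes secrete to drive granulosa cell proliferation and cumulus expansion. BMP6 is a related ligand that acts through SMAD1 and SMAD5, and FGF8 acts with the BMPs on cumulus cell metabolism. Traffic also runs the other way: KIT on the oocyte surface binds KIT ligand made by granulosa cells and activates PI3K signalling, and connexin 37 channels pass cyclic GMP and nutrients from the cumulus cells into the oocyte, with its loss causing female sterility.

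Sequencing gave 29380403 to 58285057 counts on named transcripts per library, so that 3 counts, taken as the floor of detection, amounted to 0.0515 to 0.102 counts per 1000000 counts of the library (CPM). This floor covers counting error only. Count rows that name no transcript, mostly alignments that were not unique, held 40.5 to 42.0% of all counts in *Ago2* fl/fl, 63.5 to 65.0% in *Ago2* ADH, 63.6 to 64.8% in *Ago2* null, 34.0 to 41.2% in *Dicer* WT and 52.7 to 58.4% in *Dicer* KO libraries. This share was thus higher in every mutant group than in its control, and its part in the results below was not tested. By the lane numbers in the names of the deposited files, each *Ago2* genotype had a lane of its own and each *Dicer* library another, and in the *Ago2* series the effect of the lane cannot be told apart from that of the genotype. *Ago2* itself fell in *Ago2* ADH oocytes (log2 fold change -0.87) and in *Ago2* null oocytes (-1.95), but also in *Dicer* KO oocytes (-0.56, edgeR adjusted p = 5.45e-04). *Dicer1* counts were higher in the libraries labelled *Dicer* KO (log2 fold change 1.26) and also in *Ago2* ADH (0.67) and *Ago2* null oocytes (0.59), and since counts covered the whole transcript and not the deleted part, they did not check the label, so that *Dicer* KO means the libraries so labelled throughout. Most oocyte markers were high in every library, with *Zp2* between 1439 and 2797 CPM, but *Figla* stayed below the granulosa cell marker *Serpine2* throughout. Some oocyte markers also moved with genotype. The mean of *Mos* was lower, and that of *Nobox* higher, in every mutant group than in its control. Of 15 granulosa and cumulus cell markers, 4 exceeded 5 CPM in any library (*Serpine2*, *Cyp19a1*, *Nr5a2* and *Kitl*), and the other 11 summed to 1.68 to 7.31 CPM. The summed level of all 15 was 198 to 207 CPM in *Ago2* fl/fl, 152 to 157 in *Ago2* ADH, 148 to 150 in *Ago2* null, 235 to 249 in *Dicer* WT and 191 to 208 in *Dicer* KO oocytes. It was thus lower in every mutant group than in its control, as *Kit* and *Gja4* were below. This sum was made up mostly of *Serpine2*, *Nr5a2* and *Cyp19a1*, whose means were each lower in every mutant group. The other markers did not move together. In *Ago2* ADH oocytes some of their means were higher than in *Ago2* fl/fl, among them *Inha* and *Fst*, and others lower, among them *Fshr* and *Amhr2*. The sum is therefore not a measure of the whole list, and its part in the *Kit* and *Gja4* results was not tested. Each library held 20 counted oocytes, whereas for other cells carried along in such bulk samples fewer cells of a type and less RNA per cell cannot be told apart. The defining granulosa cell genes *Foxl2* and *Fshr* did not exceed 0.143 and 1.10 CPM in any library. The 10 theca and blood cell markers found summed to 3.68 to 5.61 CPM in *Ago2* fl/fl, 7.79 to 16.3 in *Ago2* ADH, 5.54 to 6.84 in *Ago2* null, 3.71 to 4.29 in *Dicer* WT and 3.25 to 4.91 in *Dicer* KO oocytes. Of these, *Cyp11a1* and *Hsd3b1* exceeded 5 CPM in any library, and *Ptprc* and *Hba-a1* were at or near 0.

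All 6 genes were detected in all 14 libraries, but their levels spanned a wide range. To compare genes with each other, CPM scaled by the trimmed mean of M values (TMM) was divided by the length of the transcript in kilobases. In *Ago2* fl/fl oocytes *Gdf9* stood at 3199 ± 255 CPM per kilobase (SD, n = 3), the second-highest level, rank 2 of 17105 genes with counts and a length. *Bmp15* followed at 403 ± 20.1, *Gja4* at 119 ± 2.87, *Kit* at 50.9 ± 1.21, *Bmp6* at 16.0 ± 0.533 and *Fgf8* at 11.9 ± 1.08 CPM per kilobase. The order was the same in each of the 5 groups, and no library of a gene overlapped with those of the next gene in the order within any group. Without the division by length the mean of *Kit* stood above that of *Gja4* in each group except *Ago2* null. In *Ago2* ADH oocytes the libraries of these genes overlapped (152 to 168 CPM for *Kit* and 144 to 170 CPM for *Gja4*).

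**Figure D1:**
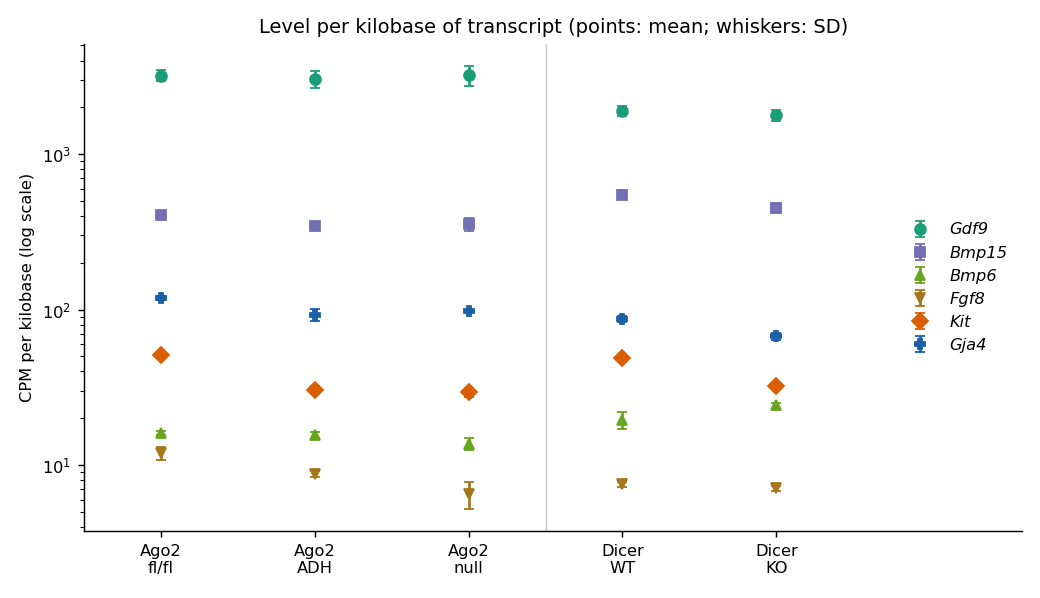
Mean level of each gene in CPM per kilobase of transcript (vertical log axis, whiskers SD) in the 5 groups, with the *Ago2* series left of the grey line and the *Dicer* series right of it. *Gdf9* is highest in each group (3199 in *Ago2* fl/fl and 1894 in *Dicer* WT oocytes), and *Fgf8* is lowest.

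The 2 control groups were not alike. *Gdf9* stood 1.69-fold higher in *Ago2* fl/fl than in *Dicer* WT oocytes, whereas *Bmp15* stood 1.36-fold higher in *Dicer* WT oocytes. *Fgf8* was 1.59-fold and *Gja4* 1.36-fold higher in *Ago2* fl/fl oocytes, and *Kit* was nearly equal (266 and 256 CPM). These values were not tested, because series, strain background and sequencing lane cannot be told apart, and the mutants were therefore compared only with the control of their own series.

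**Figure D2:**
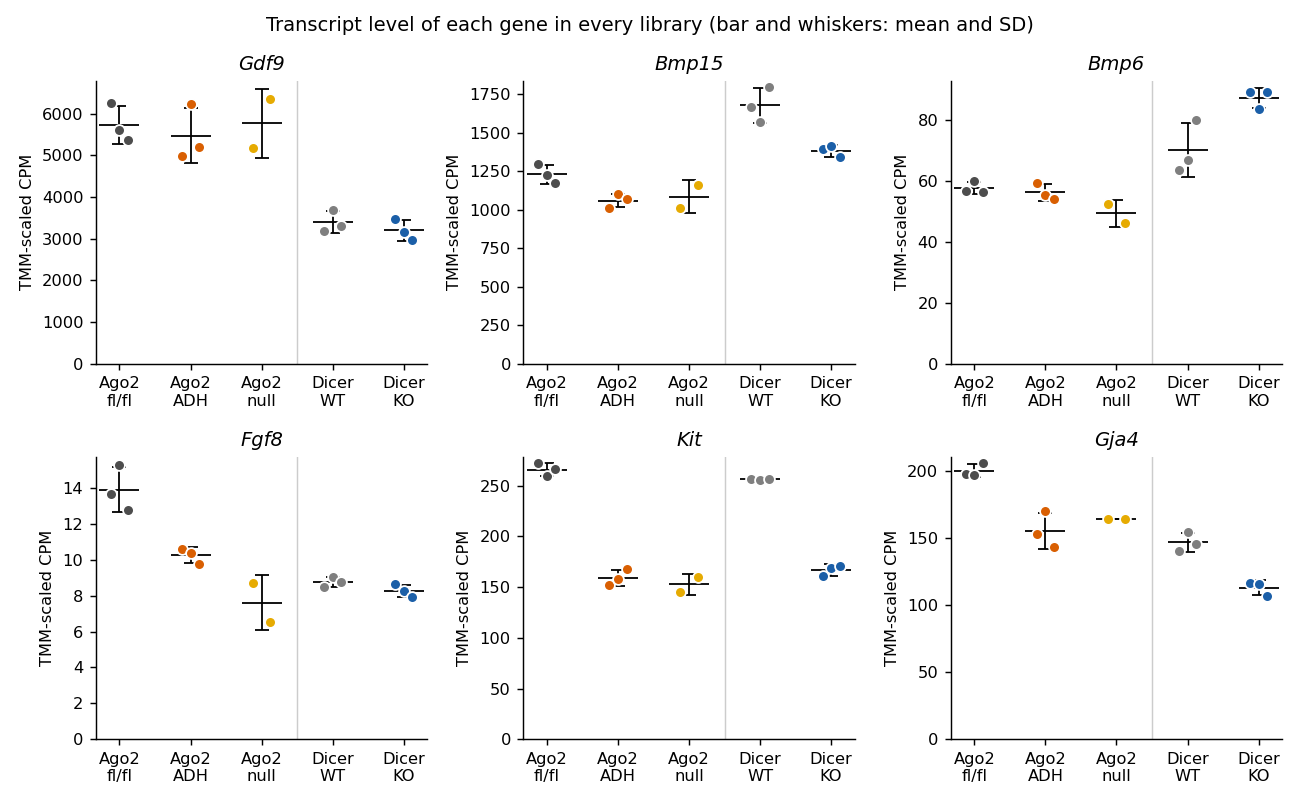
TMM-scaled CPM of each gene in every library (points) with mean and SD (bar and whiskers) in the 5 groups, on vertical axes that start at 0. *Kit* and *Gja4* libraries of each mutant group sit below all libraries of their control, while *Gdf9* libraries overlap between each mutant and its control.

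*Kit* transcripts were lower in all 3 mutants, and this was the most sharply separated change among the 6 genes. *Kit* lies on chromosome 5 at chr5:75574916-75656722 on the plus strand (GRCm38, as are all positions here). *Ago2* fl/fl libraries contained 272, 259 and 266 CPM, whereas levels were 152, 158 and 168 CPM in *Ago2* ADH, and 146 and 160 CPM in *Ago2* null libraries. In the *Dicer* series it was 257, 255 and 257 CPM in WT and 161, 169 and 171 CPM in KO libraries. No mutant library reached a control library, and the *Dicer* WT libraries differed by less than any other group's (SD 0.670 CPM). The fitted level fell by 38.1% in *Ago2* ADH oocytes (95% interval -42.4 to -33.4%), a log2 fold change of -0.69 ± 0.0501 (SE; adjusted p = 1.24e-09 by the quasi-likelihood test of edgeR, with the Benjamini-Hochberg procedure applied over 18835 transcripts). The log2 fold change was -0.77 ± 0.0604 in *Ago2* null oocytes (edgeR adjusted p = 2.14e-08) and -0.62 ± 0.0578 in *Dicer* KO oocytes (edgeR adjusted p = 5.31e-08). The second *Kit* transcript in the files shares nearly all of its sequence and its counts were almost identical, so that both describe the same reads.

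*Gja4* also fell in all 3 mutants, by less than *Kit*. The gene lies at chr4:127311421-127314039 on the minus strand. Connexin 37 transcripts measured 198, 197 and 206 CPM in *Ago2* fl/fl, 153, 170 and 144 CPM in *Ago2* ADH, and 164 and 164 CPM in *Ago2* null libraries. *Dicer* WT libraries held 141, 154 and 146 CPM and *Dicer* KO libraries 117, 116 and 107 CPM. The groups did not overlap in either series, although the *Ago2* ADH libraries spread more widely than their control (SD 13.3 against 4.84 CPM). *Gja4* decreased by 19.7% in *Ago2* ADH oocytes (95% interval -26.0 to -13.0%; log2 fold change -0.32 ± 0.0556, edgeR adjusted p = 9.79e-05), and in *Dicer* KO oocytes it fell by 23.1% (95% interval -30.1 to -15.5%; log2 fold change -0.38 ± 0.0651, edgeR adjusted p = 9.68e-05). In *Ago2* null oocytes the log2 fold change was -0.25 ± 0.0572 (edgeR adjusted p = 0.00144), and it passed the 1% threshold neither without *Ago2* fl/fl replicate 2 (-0.26, adjusted p = 0.0101) nor without replicate 3 (-0.23, adjusted p = 0.0120).

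*Bmp15* fell modestly in *Ago2* ADH and *Dicer* KO oocytes. This X-linked gene occupies chrX:6314107-6320721 on the minus strand. Its level was 1297, 1227 and 1174 CPM in *Ago2* fl/fl, 1012, 1101 and 1068 CPM in *Ago2* ADH, and 1011 and 1161 CPM in *Ago2* null libraries, and 1670, 1570 and 1797 CPM in *Dicer* WT against 1399, 1412 and 1341 CPM in *Dicer* KO libraries. Control and mutant libraries did not overlap, but the gap was narrow in the *Ago2* series, where the lowest control library (1174 CPM) lay close to the highest mutant ones (1161 and 1101 CPM). *Bmp15* decreased by 17.7% in *Dicer* KO oocytes (95% interval -24.7 to -10.1%; log2 fold change -0.28 ± 0.0612, edgeR adjusted p = 9.25e-04). In *Ago2* ADH oocytes it fell by 11.1% (95% interval -16.8 to -5.04%; log2 fold change -0.17 ± 0.0456, edgeR adjusted p = 0.00418), and it missed the threshold without *Ago2* fl/fl replicate 1 (-0.14, adjusted p = 0.0150) or 2 (-0.17, adjusted p = 0.0209) and without *Ago2* ADH replicate 1 (-0.15, adjusted p = 0.0323). In *Ago2* null oocytes the log2 fold change of -0.15 ± 0.0616 did not pass (edgeR adjusted p = 0.0501), and the 2 null libraries pulled it in opposite directions, to -0.26 without *Ago2* null replicate 2 (adjusted p = 0.00256) and to -0.05 without replicate 1 (adjusted p = 0.516).

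*Gdf9*, the most abundant of the 6, did not pass the threshold in any mutant. It lies at chr11:53431023-53437904 on the plus strand. The *Ago2* fl/fl libraries held 6248, 5598 and 5364 CPM, the *Ago2* ADH libraries 4980, 6223 and 5209 CPM and the *Ago2* null libraries 5185 and 6358 CPM, so that mutant libraries lay both above and below controls. *Dicer* WT libraries held 3185, 3692 and 3311 CPM and *Dicer* KO libraries 3468, 3168 and 2960 CPM, again with overlap. The 95% interval of the difference ran from -10.1 to 7.87% in *Ago2* ADH, -7.55 to 14.3% in *Ago2* null and -15.1 to 3.97% in *Dicer* KO oocytes (edgeR adjusted p = 0.790, 0.677 and 0.310), so that a change of the size seen for *Kit* lay outside each interval.

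*Bmp6* rose in *Dicer* KO oocytes and was not called in either *Ago2* mutant. The gene spans chr13:38345107-38500302 on the plus strand, and its last 224 bases overlap the antisense gene *Txndc5*, from which reads cannot be told apart because counting did not use strand. *Bmp6* measured 56.6, 59.8 and 56.4 CPM in *Ago2* fl/fl, 59.4, 55.2 and 53.9 CPM in *Ago2* ADH, and 52.4 and 46.2 CPM in *Ago2* null libraries. *Dicer* WT libraries held 63.4, 66.9 and 79.9 CPM, all below the 89.0, 83.3 and 88.9 CPM of *Dicer* KO libraries. *Bmp6* rose 1.24-fold in *Dicer* KO oocytes (95% interval of the change 10.1 to 39.8%; log2 fold change 0.31 ± 0.0822, edgeR adjusted p = 0.00450), the sole increase among the 6 genes. That call was lost without *Dicer* WT replicate 1 (0.24, adjusted p = 0.0331) or 2 (0.27, 0.0339), without *Dicer* KO replicate 1 (0.29, 0.0123) or 3 (0.30, 0.0137), and when library totals replaced TMM scaling (0.25, 0.0137). *Txndc5* did not pass the threshold in *Dicer* KO oocytes (log2 fold change 0.16, edgeR adjusted p = 0.0588). In *Ago2* ADH oocytes the *Bmp6* log2 fold change was 0.01 (95% interval -8.13 to 10.5%, edgeR adjusted p = 0.901), and in *Ago2* null oocytes it was -0.19 (edgeR adjusted p = 0.0472), short of the 1% threshold, with -0.28 without *Ago2* null replicate 1 and -0.11 without replicate 2.

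*Fgf8*, the least abundant, fell in both *Ago2* mutants. It lies at chr19:45736798-45742915 on the minus strand, and its 4 transcripts in the files had almost the same counts. *Fgf8* stood at 13.7, 15.3 and 12.8 CPM in *Ago2* fl/fl, 10.6, 10.4 and 9.78 CPM in *Ago2* ADH, and 8.68 and 6.52 CPM in *Ago2* null libraries. No library overlapped between the control and either *Ago2* mutant, whereas *Dicer* WT (8.48, 9.01 and 8.77 CPM) and *Dicer* KO libraries (8.62, 8.25 and 7.93 CPM) overlapped. *Fgf8* decreased by 44.1% in *Ago2* null oocytes (95% interval -54.4 to -31.3%; log2 fold change -0.84 ± 0.140, edgeR adjusted p = 1.07e-04), to 7.60 ± 1.53 CPM (SD, n = 2). In *Ago2* ADH oocytes it fell by 23.7% (95% interval -34.6 to -11.1%; log2 fold change -0.39 ± 0.105, edgeR adjusted p = 0.00437), a call that did not pass without *Ago2* fl/fl replicate 2 (-0.32, adjusted p = 0.0373) or *Ago2* ADH replicate 3 (-0.37, adjusted p = 0.0158). In *Dicer* KO oocytes the log2 fold change was -0.09, with a 95% interval of -23.8 to 16.4% (edgeR adjusted p = 0.659).

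**Figure D3:**
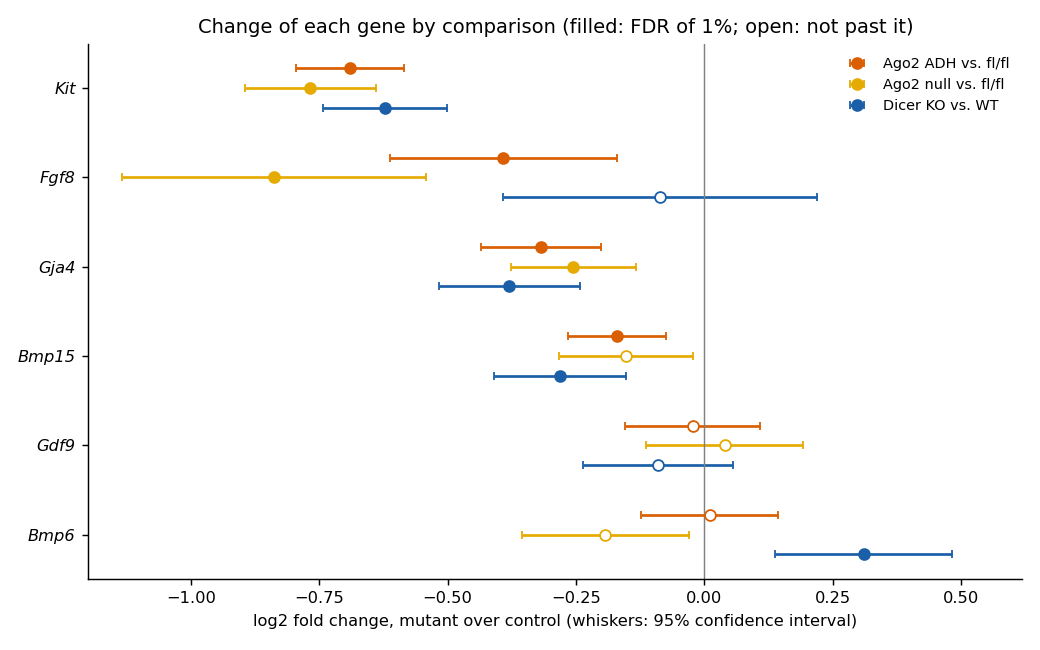
Log2 fold change of each gene (horizontal axis, whiskers 95% interval) in *Ago2* ADH and *Ago2* null oocytes against fl/fl and in *Dicer* KO oocytes against WT, with filled points past an FDR of 1%. *Kit* lies between -0.77 and -0.62 in each comparison, *Gdf9* between -0.09 and 0.04, and the *Bmp6* value of *Dicer* KO oocytes (0.31) is the one filled point above 0.

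Counted over the 6 genes, 4 were lower in *Ago2* ADH oocytes at an FDR of 1%, where 20.1% of all tested transcripts were lower, 20.5% were higher and 40.7% changed in either direction. This count was 2 without *Ago2* fl/fl replicate 2. In *Ago2* null oocytes 3 of the 6 were lower, against 19.1% of all transcripts lower and 37.2% changed, and in *Dicer* KO oocytes 3 were lower and 1 higher, against 17.8% lower, 16.7% higher and 34.5% changed. Their median log2 fold change was -0.24, -0.22 and -0.19 in these comparisons, beside 0.007, 0.002 and -0.004 over all tested transcripts. The *Ago2* ADH and *Ago2* null comparisons share the control libraries and are not independent.

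Next, *Ago2* ADH oocytes were compared with *Ago2* null oocytes. At an FDR of 1% none of the 6 genes passed by edgeR or by DESeq2, where 0.119% of all tested transcripts did (0.0673% higher and 0.0518% lower in *Ago2* ADH oocytes). An unadjusted edgeR p under 0.05 was reached by 1931 of all 19306 tested transcripts and by 2 of the 6 genes. These 2 were *Fgf8* (log2 fold change 0.43, 95% interval 8.65 to 66.7%, adjusted p = 0.326) and *Bmp6* (0.18, 95% interval 0.557 to 28.5%, adjusted p = 0.488), both higher in *Ago2* ADH libraries. These differences rested on single null libraries: *Fgf8* was at 0.24 and *Bmp6* at 0.10 without *Ago2* null replicate 2 (edgeR adjusted p = 0.989 and 0.990), and at 0.66 and 0.29 without replicate 1 (edgeR adjusted p = 0.123 and 0.247). For *Kit* the 95% interval of the log2 difference was -0.09 to 0.20, and for *Gja4* it was -0.23 to 0.07.

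The *Ago2* ADH effect was also tested against the *Dicer* KO effect, as an interaction over 12 libraries. The difference of effects passed an FDR of 1% for none of the 6 genes by edgeR or DESeq2, where it did for 3.55% of tested transcripts (1.2% higher and 2.35% lower). It had an unadjusted edgeR p under 0.05 for 2 of the 6, *Bmp6* and *Fgf8*, beside 4550 of all 19500 tested transcripts. For *Bmp6* the *Ago2* ADH effect was 0.35 lower on the log2 scale, a difference of -0.35 ± 0.106 (edgeR adjusted p = 0.0406), which became -0.46 (adjusted p = 0.00421) without *Dicer* WT replicate 3. For *Fgf8* the difference was -0.36 ± 0.165 (edgeR adjusted p = 0.194). The effects on *Kit* differed by -0.12 ± 0.0738 (95% interval -17.3 to 2.25%) and those on *Gja4* by 0.01 ± 0.0874 (95% interval -11.1 to 14.3%). The fall of *Fgf8* in *Ago2* ADH oocytes and the rise of *Bmp6* in *Dicer* KO oocytes were thus not shown to be particular to 1 mutant, and the *Ago2* null effect was not tested against the *Dicer* KO effect.

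GDF9 and BMP15 can form a heterodimer, and the ratio of their transcripts within a library does not depend on how libraries are scaled. There were 208, 219 and 219 *Bmp15* counts per 1000 *Gdf9* counts in *Ago2* fl/fl replicates 1 to 3, against 203, 177 and 205 in *Ago2* ADH replicates and 195 and 183 in *Ago2* null replicates. *Dicer* WT libraries gave 524, 425 and 543 and *Dicer* KO libraries 403, 446 and 453. The mutant values lay below those of the control in the *Ago2* series and overlapped with them in the *Dicer* series. Over both series the log2 ratio was 0.17 lower in *Ago2* ADH and *Dicer* KO than in control oocytes, a difference of -0.17 (exact permutation test within series, 2-sided, p = 0.035; smallest possible p = 0.005). Raw p-values of the separate comparisons were 0.1 for *Ago2* ADH, 0.1 for *Ago2* null and 0.3 for *Dicer* KO (2-sided exact permutation tests, smallest possible 0.1). The joint result was not stable: without single libraries the exact permutation p ranged from 0.005 to 0.10, and it passed 0.05 in 4 of 12 such tests, with -0.16 (p = 0.075) without *Ago2* fl/fl replicate 2 or 3, -0.13 (p = 0.065) without *Ago2* ADH replicate 2, -0.15 (p = 0.075) and -0.13 (p = 0.09) without *Dicer* WT replicate 1 and 3, and -0.14 (p = 0.1), -0.18 (p = 0.085) and -0.18 (p = 0.065) without *Dicer* KO replicate 1, 2 and 3.

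*Gja4* fell relative to *Gdf9* in both series. *Ago2* fl/fl libraries held 31.7, 35.2 and 38.4 *Gja4* counts per 1000 *Gdf9* counts, *Ago2* ADH libraries 30.7, 27.3 and 27.6, and *Ago2* null libraries 31.7 and 25.8. *Dicer* WT libraries held 44.2, 41.8 and 44.0 and *Dicer* KO libraries 33.7, 36.6 and 36.1. The groups did not overlap except for *Ago2* null replicate 1, which lay just above the lowest control. The log2 ratio differed by -0.29 over both series, with p = 0.005 (2-sided exact permutation test within series), the smallest that 400 assignments allow. For *Ago2* ADH and *Dicer* KO alone the difference was -0.29 each (exact p = 0.1, the smallest possible), and for *Ago2* null it was -0.29 (exact p = 0.3). These 2 ratios were the only ones computed. They use the same counts as the tests of *Bmp15*, *Gja4* and *Gdf9* above and are not independent of those tests.

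**Figure D4:**
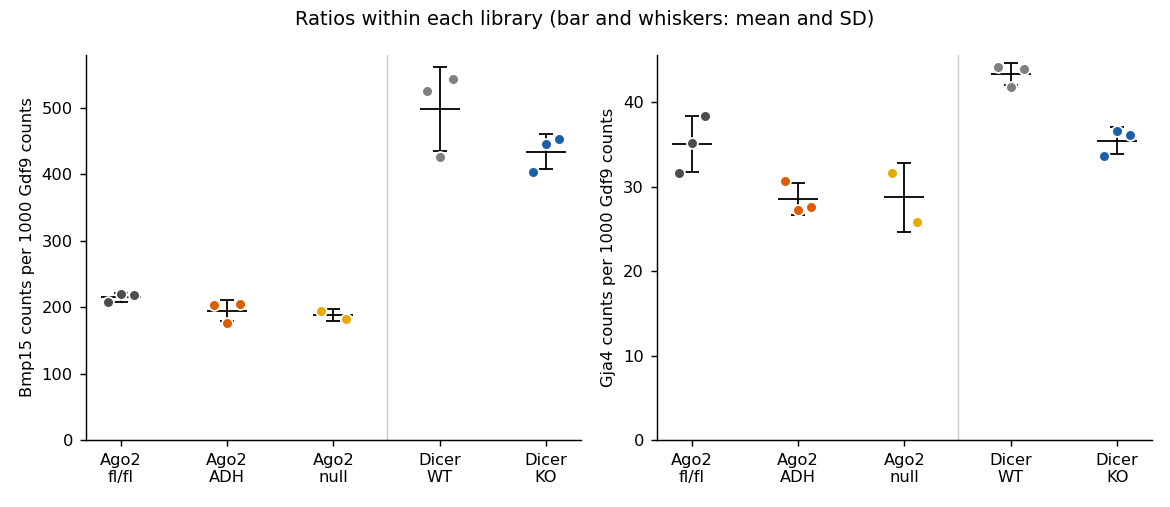
*Bmp15* counts (left) and *Gja4* counts (right) per 1000 *Gdf9* counts in every library, with mean and SD, on vertical axes that start at 0. *Gja4* ratios of *Dicer* KO libraries (33.7 to 36.6) sit below those of *Dicer* WT libraries (41.8 to 44.2), and *Bmp15* ratios overlap there.

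*Kit*, *Gja4* and *Bmp15* were the genes that fell in both *Ago2* ADH and *Dicer* KO oocytes, and the sequences before their transcription start are shown for that reason. They come from RefSeq on GRCm38.p6, where 4 of the 6 genes had an entry, and end before the first annotated exon. They were searched on both strands for the E-box CANNTG (bound by FIGLA and other helix-loop-helix factors), for TAATTG (an element bound by the oocyte homeobox factor NOBOX) and for TATAAA, and capitals mark the E-box.
*Kit*, chr5:75574737-75574915, plus strand: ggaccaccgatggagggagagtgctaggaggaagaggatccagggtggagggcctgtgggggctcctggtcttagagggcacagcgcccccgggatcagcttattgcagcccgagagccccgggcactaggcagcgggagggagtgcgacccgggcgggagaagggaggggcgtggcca
*Gja4*, chr4:127314040-127314289, minus strand: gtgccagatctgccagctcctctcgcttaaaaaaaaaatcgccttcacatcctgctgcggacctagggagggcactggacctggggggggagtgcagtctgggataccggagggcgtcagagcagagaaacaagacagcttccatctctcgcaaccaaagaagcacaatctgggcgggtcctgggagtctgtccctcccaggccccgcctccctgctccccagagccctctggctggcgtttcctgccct
*Bmp15*, chrX:6320725-6320974, minus strand: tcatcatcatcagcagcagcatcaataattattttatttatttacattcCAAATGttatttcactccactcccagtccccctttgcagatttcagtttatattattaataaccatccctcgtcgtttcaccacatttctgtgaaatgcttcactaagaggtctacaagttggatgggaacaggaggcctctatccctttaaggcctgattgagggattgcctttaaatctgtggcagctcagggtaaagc
The *Kit* and *Gja4* windows are rich in G and C (69.3 and 61.2%) and hold none of the 3 motifs, while the *Bmp15* window, with 40.4% G and C, holds 1 E-box and 1 TATAAA. The TATAAA lies on the strand opposite to the one printed. An E-box occurs in 55.3% of 32851 promoter windows of 179 bases and in 66.2% of those of 250 bases, TAATTG in 5.50 and 7.17%, and TATAAA in 8.34 and 12.4%. Hence none of the motifs searched was shared by these 3 windows, and other elements were not searched.

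Likeness of expression was described over the 14 libraries, with log2 CPM centred within each series and 11517 other genes compared. These coefficients share depth, genotype and lane, and are given as a description. *Kit* was most like *Rbpms2* (Pearson r = 0.988), *Rell1* (0.988) and 1700066M21Rik (0.988), and *Gja4* was most like *Tfap2e* (0.978), *Fbxw4* (0.978) and *Umodl1* (0.973). *Bmp15* was most like *Eif1ax* (0.953), *Bmp6* like *Prr14* (0.945) and *Fgf8* like *Zfhx3* (0.946), whereas the closest gene to *Gdf9*, *Tspan14*, reached 0.868. Among the 6 genes themselves *Kit* and *Gja4* had an r of 0.894, *Kit* and *Bmp15* 0.862, and *Bmp15* and *Gja4* 0.825, while *Bmp6* had an r of 0.43 with *Fgf8* and negative values with *Gdf9* (-0.36), *Bmp15* (-0.35), *Gja4* (-0.33) and *Kit* (-0.20).

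The receptors, transducers and junction partners of these factors were examined as 9 lists with 117 genes in all. These lists were chosen with earlier results of these data known, and they count 1 transcript per gene. Their shares beside those of all tested transcripts are therefore descriptive. In *Ago2* ADH oocytes 96 of them were tested, of which 14 (14.6%) rose and 27 (28.1%) fell, beside 20.5 and 20.1% of all tested transcripts. In *Ago2* null oocytes 10 (10.2%) rose and 29 (29.6%) fell of 98, beside 18.1 and 19.1% of all, and in *Dicer* KO oocytes 12 (12.6%) rose and 24 (25.3%) fell of 95, beside 16.7 and 17.8% of all. Called in either direction were 42.7, 39.8 and 37.9% of the list genes, near the 40.7, 37.2 and 34.5% of all tested transcripts, with a median log2 fold change of -0.12, -0.15 and -0.03. Between *Ago2* ADH and *Ago2* null oocytes none of 95 passed by edgeR (14 at an unadjusted p under 0.05, and 1 by DESeq2 at an FDR of 1%). Of all 19306 tested transcripts, 1931 had an unadjusted edgeR p under 0.05 there.

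On the KIT side the share of called genes lay near that of all transcripts. *Kitl*, the ligand that granulosa cells supply, stood at 5.32 ± 0.434 CPM (SD, n = 3) in *Ago2* fl/fl oocytes and was not called in any mutant. Of 24 KIT signal transducers tested in *Ago2* ADH oocytes 4 rose and 6 fell (41.7% called, beside 40.7% of all), and of 23 in *Dicer* KO oocytes 2 rose and 7 fell (39.1%, beside 34.5% of all). *Pik3r1*, the regulatory subunit of PI3K, fell in *Ago2* ADH (log2 fold change -0.72), *Ago2* null (-0.85) and *Dicer* KO oocytes (-0.64; edgeR adjusted p = 5.71e-10, 8.24e-09 and 3.77e-07). *Rps6kb1*, a kinase downstream of mTOR, fell too (-0.51, -0.75 and -0.69), and the adaptor *Shc1* rose (0.62, 0.61 and 0.56). *Cbl*, the ubiquitin ligase that targets KIT for degradation, fell most in *Dicer* KO oocytes (-1.02).

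Of the receptors for BMP15, GDF9 and BMP6, the oocyte libraries contained the type 2 receptor *Bmpr2* and the type 1 receptor *Bmpr1b* at high levels, and both rose. *Bmpr1b* went from 300 ± 8.28 CPM in *Ago2* fl/fl to 400 CPM in *Ago2* ADH and from 349 to 538 CPM in *Dicer* KO oocytes (log2 fold change 0.46 and 0.62), and *Bmpr2* changed by 0.46 and 0.64. *Bmpr1a* (-0.41 and -0.70) and the coreceptor *Tgfbr3* (-0.78 and -0.86) fell in these mutants. *Acvr1b* fell too (-0.38 and -0.71), though its *Ago2* ADH call held in only 10 of 14 alternatives. *Acvr1* fell in *Ago2* ADH oocytes (-1.05, edgeR adjusted p = 1.25e-05) but was not called in *Dicer* KO oocytes (-0.31, edgeR adjusted p = 0.175). *Tgfbr1*, named here after its values were seen, fell in *Dicer* KO oocytes (-0.59, edgeR adjusted p = 0.00210) and was not called in *Ago2* ADH oocytes (-0.18). In total 2 receptors rose and 4 fell in *Ago2* ADH oocytes, of 9 tested (66.7% called, beside 40.7% of all transcripts), and 2 rose and 4 fell in *Dicer* KO oocytes, of 10 (60.0%, beside 34.5%). Among SMADs and their regulators 3 of 12 rose and 1 fell in each of the 2 mutants (33.3%, near the share of all transcripts), with *Smad5*, a transducer of BMP signals, higher (0.77 and 0.97) and the ubiquitin ligase *Smurf2* lower (-0.67 and -0.84).

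Among other ligands of the superfamily, *Tgfb2* fell (-0.45 and -0.70 in *Ago2* ADH and *Dicer* KO oocytes). It was the sole one of 10 tested to be called in *Ago2* ADH oocytes (10%, beside 40.7% of all transcripts). In *Dicer* KO oocytes 1 ligand rose and 1 fell, of 10 tested (20%, beside 34.5%). *Bmp5* rose in *Dicer* KO oocytes (0.63, edgeR adjusted p = 1.27e-06), with 0.19 in *Ago2* ADH oocytes (edgeR adjusted p = 0.0177). Of the proprotein convertases, which cleave the precursors of these factors, *Pcsk6* fell (-0.93 in each; -0.74, edgeR adjusted p = 0.0122, in *Dicer* KO oocytes without *Dicer* WT replicate 2) and *Furin* was not called in any mutant (0.12 and 0.16). Among extracellular antagonists *Htra1*, a secreted protease that binds members of the superfamily, rose from 36.3 to 90.9 CPM in *Ago2* ADH oocytes (log2 fold change 1.37) and from 18.1 to 54.8 CPM in *Dicer* KO oocytes (1.59). *Twsg1* rose in *Ago2* ADH oocytes (0.57, edgeR adjusted p = 9.48e-04), a call lost with all groups in one fit. It was not called in *Dicer* KO oocytes (-0.42, edgeR adjusted p = 0.137). Of 6 tested antagonists 2 were called in *Ago2* ADH oocytes (33.3%, beside 40.7% of all transcripts). In *Dicer* KO oocytes 1 of 6 was called (16.7%, beside 34.5%).

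On the FGF side, *Fgfr1* and *Fgfr2*, receptors that FGF8 can bind, were not called in any mutant (log2 fold change -0.11 for *Fgfr2* in *Ago2* ADH oocytes). The feedback inhibitor *Spry1* fell (-1.27, -1.39 and -1.50 in *Ago2* ADH, *Ago2* null and *Dicer* KO oocytes), as did the adaptor *Frs2* (-0.72, -0.77 and -0.77), and the inhibitor *Spred1* rose (0.93, 1.04 and 0.84). In all, 2 of 11 tested genes rose and 3 fell in *Ago2* ADH oocytes (45.5% called, beside 40.7% of all transcripts), and 1 rose and 3 fell in *Dicer* KO oocytes (36.4%, beside 34.5%).

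Most of the adhesion genes were lower. Of 11 genes for oocyte-granulosa adhesion and transzonal projections, the thin granulosa cell processes that reach the oocyte, 8 fell and 1 rose in *Ago2* ADH oocytes, 9 fell and 1 rose in *Ago2* null oocytes, and 6 fell and 2 rose in *Dicer* KO oocytes, with a median log2 fold change of -0.29, -0.49 and -0.30. The share that fell was 72.7, 81.8 and 54.5%, beside 20.1, 19.1 and 17.8% of all tested transcripts. As this list was chosen with earlier results of these data known, its share is a description and not an independent test. The libraries were made from oocytes, so these values do not measure projections of granulosa cells. *Cdh2*, N-cadherin, fell (log2 fold change -0.85 in *Ago2* ADH oocytes and -0.47 in *Dicer* KO oocytes), as did *Ctnna1*, alpha-catenin (-0.49 and -0.52), and *Notch2* (-1.31 and -1.16). *Cdh1*, E-cadherin, named here after its values were seen, was not called in *Ago2* ADH (-0.10), *Ago2* null (-0.16) or *Dicer* KO oocytes (0.005). *Myo10* fell in *Ago2* ADH (-0.24) and *Ago2* null (-0.46) but rose in *Dicer* KO oocytes (1.92). *Fscn1*, an actin bundling protein of projections, rose (1.11 and 1.29) from 1.47 CPM in *Ago2* fl/fl and 0.885 CPM in *Dicer* WT oocytes. At this low level the call was lost without *Ago2* ADH replicate 1 (0.92), without *Dicer* WT replicate 1 (0.99) or 2 (1.42), and without *Dicer* KO replicate 1 (1.09) or 2 (1.38). The granulosa cell connexin *Gja1* stayed below 1.13 CPM in every library. Of 13 connexins and pannexins other than *Gja4*, 9 were tested in *Ago2* ADH oocytes, where 2 fell (22.2% lower, beside 20.1% of all transcripts), among them *Gjb2* (-1.09, edgeR adjusted p = 6.84e-05). In *Dicer* KO oocytes 8 were tested and none passed by edgeR or DESeq2, beside 34.5% of all transcripts by edgeR. An unadjusted edgeR p under 0.05 was reached there by 1 of the 8 and by 9722 of all 18570 tested transcripts.

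**Figure D5:**
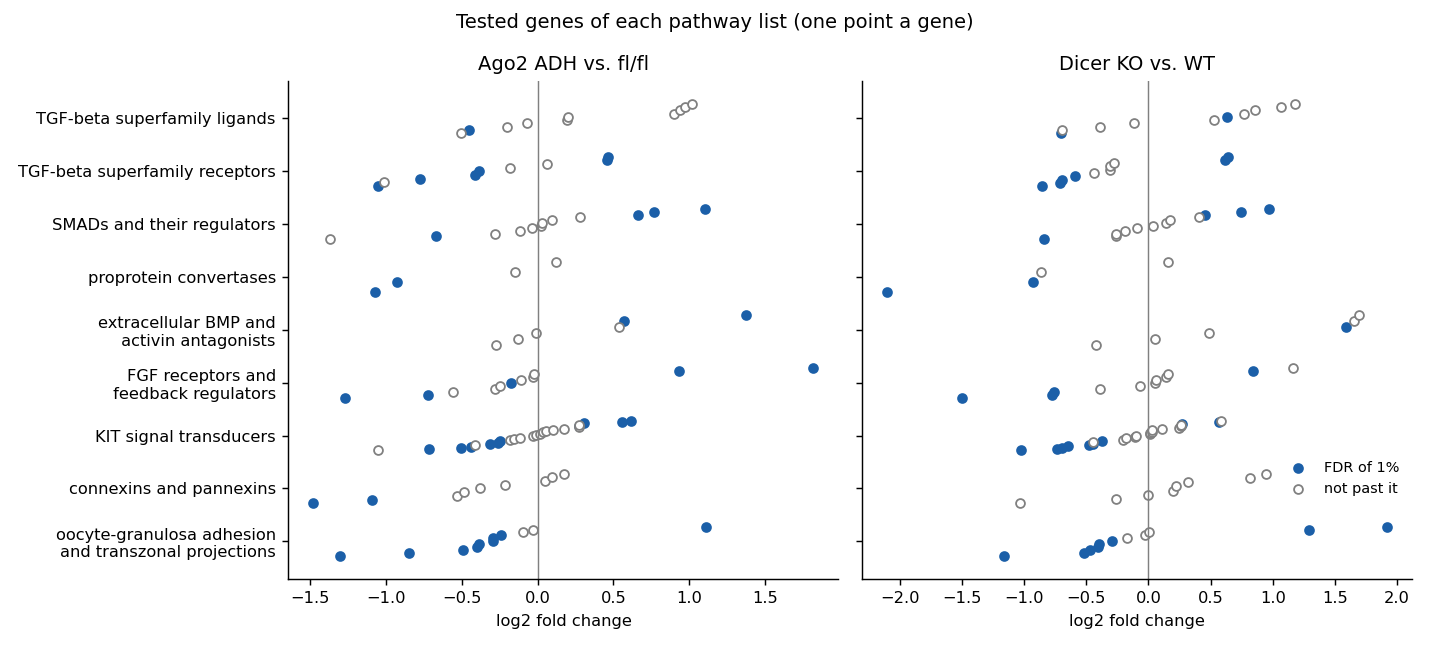
Log2 fold change (horizontal axis) of each tested gene of the 9 lists in *Ago2* ADH oocytes against fl/fl (left) and *Dicer* KO oocytes against WT (right), with filled points past an FDR of 1%. In the bottom row, adhesion and projections, 8 filled points on the left and 6 on the right lie below 0.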

How the data were processed

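Per the labels and the study's methods, cDNA was amplified with the Ovation RNA-Seq System V2 and libraries were made with an Ultralow kit. According to the submitters' processing notes the authors used TopHat2 2.0.7, mm10 and HTSeq 0.6.1, and deposited raw counts per RefSeq transcript. The study's methods give different mapping options for reads of different lengths and do not say which libraries had which. The part of this in the results was not tested. These counts were used as deposited. Rows naming no transcript, 34.0 to 65.0% of each file, were left out, and 301 of 26495 transcripts had no symbol. TMM-scaled CPM was computed over all 14 libraries. Each comparison was fitted on its own libraries over all transcripts that passed filterByExpr (edgeR 4.0.16, R 4.3.3, quasi-likelihood test, FDR of 1%), with intervals of 95%. Ratios were tested by exact permutation (scipy 1.17.1, Python 3.11.15), and lengths came from GENCODE. Alternatives were DESeq2 1.42.0, RLE scaling, library totals, other filters, 1 transcript per gene, 1 fit of all groups, an FDR of 5%, a replicate block and leaving out each library. Library totals in fold changes were added after seeing the data. The genes and lists were chosen with earlier results of these data known. Unless marked as named after their values were seen, genes named from the lists were taken by rule. The rule took the up to 3 called genes with the largest change in *Ago2* ADH or *Dicer* KO oocytes among those with at least 100 normalized counts, and 7 known partners. Not every gene that met it is named in the text, and *Tgif1*, *Ski*, *Sos1* and *Mtor* were left out.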

Additional observations from a re-analysis of the deposited data

Results flagged for a closer look

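The effects in *Ago2* ADH and *Dicer* KO oocytes differed for 5 of 99 tested genes of the 9 lists by the interaction test of edgeR at an FDR of 1%, beside 3.55% of all tested transcripts. Of these, 3 are among the genes named by rule, which had been picked for a large change in 1 of these mutants, and *Foxo3* (-0.39) and *Smad4* (-0.41) are named here after their values were seen. *Myo10* encodes a motor of the processes that granulosa cells send to the oocyte, but these libraries were made from oocytes and do not measure those processes. *Myo10* went from 394 to 323 CPM in *Ago2* ADH oocytes and from 93.1 to 354 CPM in *Dicer* KO oocytes, a difference of effects of -2.21 ± 0.0812 on the log2 scale (adjusted p = 1.19e-14) that was past the threshold in all 20 alternatives. The control levels themselves were far apart (394 CPM in *Ago2* fl/fl and 93.1 CPM in *Dicer* WT oocytes). Between the series, strain background and lane cannot be told apart, and no alternative addresses this. *Cbl* differed by 0.71 ± 0.132 (adjusted p = 0.00123), also past it in all 20. *Bmp5* differed by -0.49 ± 0.0980 (adjusted p = 0.00245) and was past it in 17 of 20, the exceptions being the tests without *Ago2* fl/fl replicate 2 (-0.45), *Ago2* ADH replicate 1 (-0.46) and *Dicer* WT replicate 2 (-0.46).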

How the results depend on the processing

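Of 474 alternative values of the log2 fold changes of the 6 genes, 435 kept their direction and side of the threshold, and 22 changed sign, none of them for a value past the threshold. With all groups in one fit and with library totals, *Bmp6* in *Ago2* ADH oocytes became -0.0361 and -0.0336. No label gives a replicate number as a shared animal, batch or day, and same-numbered libraries correlated at -0.16 to 0.06. With the replicate block *Gdf9* in *Ago2* null oocytes was -0.0089, *Gja4* there missed the threshold (-0.23, adjusted p = 0.0291), and the *Bmp15* to *Gdf9* ratio was -0.17 (exact permutation p = 0.0938). Leaving out 1 library gave 2 to 4 genes called in *Ago2* ADH oocytes and 0 to 1 for the difference of effects, where an FDR of 5% also gave 1, and a *Bmp15* to *Gdf9* ratio of -0.22 to -0.13. Signs changed within leave-out ranges of -0.116 to 0.0334 (*Gdf9*) and -0.0410 to 0.0402 (*Bmp6*) in *Ago2* ADH, -0.114 to 0.182 (*Gdf9*) in *Ago2* null, -0.213 to 0.0715 (*Gdf9*), -0.126 to 0.0643 (*Bmp15*) and -0.0020 to 0.124 (*Kit*) between the *Ago2* mutants, and -0.0854 to 0.0822 (*Gdf9*) and -0.0561 to 0.0659 (*Gja4*) for the difference of effects. The *Gja4* to *Gdf9* ratio kept its call in all 15 alternatives. Over all transcripts, *Ago2* ADH and *Ago2* null oocytes differed in 23, or 81 by DESeq2, 142 with the block, 56 at an FDR of 5% and 6 to 21 without 1 library. The effects differed in 692, or 1104 by DESeq2, 1638 at an FDR of 5% and 439 to 913 without 1 library, and the share of higher calls in the difference of effects was 33.8%, or 49.6% with library totals. The causes were not tested. A lone library of a group was assumed to vary like the other groups.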
